A study of Mus musculus with 14 samples.

Results

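Among labeled hindbrain cells of E14.5 mouse embryos, a class of young glutamatergic neurons carried RNA of the LIM-homeodomain factor *Lhx2*, the forkhead factor *Foxb1* and the caudal Hox gene *Hoxb5* together. A cell was counted as such a neuron when it held at least 2 unique molecular identifiers (UMIs, 1 per captured RNA molecule) of *Lhx2*, at least 1 of *Foxb1*, at least 1 of *Hoxb5*, 0 of *Pax6* and at least 5 of *Mapt*, which encodes the microtubule protein tau. Only cells in which 1000 or more genes were detected, and in which mitochondrial UMIs made up under 10%, were considered. These limits chose 1449 cells of the 49696 kept at E14.5, and the whole series held 122658 cells kept by the same limits. The cells were thus chosen by their own UMIs of these 5 genes, whose levels are not results. In what follows the cells are called *Lhx2 Foxb1 Hoxb5* neurons, and the other kept cells with at least 5 *Mapt* UMIs are called other neurons.

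The E14.5 data came from 6 embryos on a C57BL/6J background, 1 library per embryo, 3 of each genotype. Control embryos were *Atoh1* Cre/+; Rosa lsl-tdTomato/+, and *Atoh1S193A/-* embryos were *Atoh1* Cre/S193A; Rosa lsl-tdTomato/+, so that 1 *Atoh1* copy was replaced by Cre in all 6. The control kept 1 wild-type copy, and the other copy in the mutant carried S193A, which the study describes as hypomorphic. Libraries with the same replicate number were littermates. Whole hindbrains were dissociated and sorted for tdTomato, which marks any cell whose ancestors had expressed Cre from the *Atoh1* locus, and 10x Genomics 3′ counts were made from the sorted cells. The sort thus covers the whole *Atoh1* lineage of the hindbrain and whatever caudal tissue was dissected with it, and a low cell number cannot be told apart from a difference in dissection.

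*Atoh1* is the proneural factor of the rhombic lip and of the dorsal-most progenitors of the spinal cord. From this source come cerebellar granule cells, the precerebellar neurons that send mossy fibers to the cerebellum, and, at caudal levels, the dI1 interneurons of the spinal cord and their hindbrain counterparts, which are marked by *Lhx2*, *Lhx9*, the Barhl factors and *Pou4f1*. Hox genes give neurons a position along the axis, with paralog groups of higher number used at more caudal levels. *Foxb1* is known from mammillary, brainstem and dorsal spinal neurons.

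The 6 libraries held 121762137 to 193872318 UMIs. The *Lhx2 Foxb1 Hoxb5* neurons were deeper than other neurons in each of them, with medians of 21709 to 26717 against 16815 to 20498 UMIs per cell, and their median mitochondrial share was 3.87% to 4.96%. Between 9 and 26 kept barcodes were shared in each of the 15 pairs of E14.5 libraries, 1 of them a *Lhx2 Foxb1 Hoxb5* neuron in both. Control 1 and control 2 were counted with another version of Cell Ranger (3.1.0) than the other 4 libraries (5.0.1), per the file headers. A single cell of control 3 held 10927 of the 10977 hemoglobin UMIs of that library's *Lhx2 Foxb1 Hoxb5* neurons.

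The label was set beside markers, most of which the rule did not use. Those of the class were chosen with earlier results of these data known, so that their levels are no independent check. *Pou4f1*, a POU factor of dI1 and of many sensory relay neurons, and *Gal*, which encodes the neuropeptide galanin, are the other markers of the class. After every cell had been thinned to 10000 UMIs, *Pou4f1* was found in 37.7% to 47.4% of the *Lhx2 Foxb1 Hoxb5* neurons of a library and in 7.5% to 13.2% of other neurons. *Gal* was found in 34.0% to 38.1% of them in 5 libraries and in 16.9% in mutant 2, against 3.7% to 5.9% of other neurons. Unthinned, the means over libraries were 50.9% for *Pou4f1* and 42.4% for *Gal*, against 12.9% and 8.0% of other neurons. For these shares of cells alone, other neurons leave out the 3 related classes described further on. At the thinned depth neither marker reached 50% of the cells in any library. *Pou4f1* was not particular to the class. Counted here with other neurons were 1346 cells that met every limit but had 0 *Foxb1* UMIs. On pooled UMIs these cells held *Pou4f1* at 166 counts per 1000000 UMIs, against 153 in the class. Markers of other cell types stood at different levels. The summed level of 5 glial markers was 17.4 to 25.3 counts per 1000000 UMIs (CPM), against 57.5 to 119 in other neurons, and that of 5 peripheral sensory neuron markers was 4.63 to 11.6 against 20.6 to 44.4 CPM. The sum of 5 inhibitory neuron markers, 13.7 to 32.7 against 24.3 to 73.7 CPM, overlapped that of other neurons. So did the sum of 5 cholinergic motor neuron markers, 6.70 to 19.7 (median 13.6) against 10.6 to 26.4 CPM (median 17.3), of which the motor neuron factor *Mnx1* was at 0 in all 6 libraries. The medians of this sum in the 3 related classes described further on were lower, at 3.54 to 5.84 CPM. The sum of 6 precerebellar markers was high in both, at 1072 to 1677 against 1195 to 1705 CPM, and that of 6 granule lineage markers was 276 to 462 against 755 to 1138 CPM. Both sets hold *Pax6*, which the rule fixed at 0, and the precerebellar set holds *Hoxb5* as well, so that these sums were set in part by the rule and check nothing. Microglial, endothelial and mesenchymal sums did not exceed 3.91 CPM.

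The promoters of the galanin gene, of a second peptide gene, *Cck* (cholecystokinin), which varied against *Gal* within the class, and of *Pou4f1* are shown because *Gal* led the class and *Pou4f1* is its other marker. Each run is the 250 bases before the RefSeq start on GRCm38.p6, read 5′ to 3′ on the gene's own strand, the minus strand in all 3. Capitals mark a match, on either strand, to TAATTA (homeodomain core), CAGCTG (an E-box), TGATTNAT (a Pbx-Hox type site) or TGACG (the core of a cyclic AMP response element). The first 2 read the same on both strands, and no match overlapped another. Their positions are chr19:3414545-3414794 for *Gal*, chr9:121495695-121495944 for *Cck* and chr14:104468000-104468249 for *Pou4f1*.
Gal: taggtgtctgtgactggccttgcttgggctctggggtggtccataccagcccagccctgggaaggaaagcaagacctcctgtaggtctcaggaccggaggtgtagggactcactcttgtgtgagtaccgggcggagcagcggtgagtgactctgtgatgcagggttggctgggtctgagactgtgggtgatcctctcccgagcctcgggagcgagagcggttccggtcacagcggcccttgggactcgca
Cck: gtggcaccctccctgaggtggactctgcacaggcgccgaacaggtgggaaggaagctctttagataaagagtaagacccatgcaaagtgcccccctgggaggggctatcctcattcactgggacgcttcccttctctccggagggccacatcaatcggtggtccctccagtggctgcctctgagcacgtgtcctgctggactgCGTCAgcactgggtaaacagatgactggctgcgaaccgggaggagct
Pou4f1: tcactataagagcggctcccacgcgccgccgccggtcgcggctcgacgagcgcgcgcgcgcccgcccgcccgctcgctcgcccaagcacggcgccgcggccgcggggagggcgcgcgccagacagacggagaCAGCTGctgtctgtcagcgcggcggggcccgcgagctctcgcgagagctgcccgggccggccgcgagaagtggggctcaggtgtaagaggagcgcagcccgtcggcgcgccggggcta
The *Cck* promoter held 1 TGACG, read as its complement, and the *Pou4f1* promoter held 1 CAGCTG, whereas none of the 4 motifs lay in the *Gal* window. Of 32851 promoters of the same length, 17.8% held TGACG, 13% held CAGCTG, 4.84% held TAATTA and 2.82% held TGATTNAT.

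The genes of the rule were well above their limits in most cells. The median number of *Hoxb5* UMIs per cell was 9 to 13 in 4 libraries, somewhat higher in mutant 3 and 24 in mutant 2. The medians of *Lhx2* were 6 to 11, those of *Foxb1* 3 to 7 and those of *Mapt* 39 to 48. *Foxb1* (chr9:69757710-69760940, minus strand) is overlapped by the antisense gene *B230323A14Rik* (chr9:69758740-69830845, plus strand), which led the class as well with 56.6 to 93.5 CPM against 6.65 in other neurons. It was at 65.0 CPM in *Foxb1 Hoxb5* neurons without *Lhx2*, and higher in the class than in these in 4 of 6 libraries. The study's methods name a 3′ kit and Cell Ranger at its default settings, which count reads in the sense direction of a gene. Whether reads of *Foxb1*, a gene of the rule, were counted for *B230323A14Rik* was not tested.

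Cells just outside a limit were set beside those just inside it, on UMIs pooled over libraries and without a test. The 508 cells that met all limits but had 0 *Hoxb5* UMIs held *Gal* at 28.8 and *Pou4f1* at 25.2 CPM, and the 130 cells with 1 *Hoxb5* UMI held them at 78.8 and 74.5, each higher inside the limit in 4 of 6 libraries. *Barhl1*, which was low in the class, was higher inside this limit in 6 of 6 libraries, at 16.4 against 7.33 CPM. With 1 *Lhx2* UMI, 216 cells held *Pou4f1* at 65.6 CPM, and with 2, 169 cells held it at 103, but this order held in 4 of 6 libraries and was the opposite in control 1 and control 3. With 0 *Foxb1* UMIs, 1346 cells had *Gal* at 13.4 and *Barhl1* at 48.1 CPM, and with 1, 195 cells had them at 72.6 and 12.8. *Gal* was higher inside this limit in 5 of 6 libraries and *Barhl1* lower in 6 of 6. *Pou4f1* did not separate at this limit, at 166 CPM outside and 134 inside. The 182 cells with 1 *Pax6* UMI held *Pou4f1* at 149 CPM, against 153 in the class, *Gal* at 97.8 against 137 and *Barhl1* at 21.2 against 9.95. The first 2 were higher in the class in 4 of 6 libraries each, and *Barhl1* was lower there in 6 of 6. The *Mapt* limit touched too few cells to compare, with 4 cells at 4 UMIs and 1 cell at 5.

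Relative to other neurons, 37 of 8890 genes (0.416%) were at least 2-fold higher in the *Lhx2 Foxb1 Hoxb5* neurons of all 6 libraries, and 56 (0.63%) were at least 2-fold lower. The 8890 genes, without those of the rule, had a mean of 10 CPM or more in the class or in other neurons. Shares of all genes set beside gene lists in this contrast are of these 8890, whereas the lists had no such floor. Levels are CPM of UMIs summed over the cells of a library, log2 differences were taken with 10 CPM added to both sides, and the rule used this contrast, so that the values are a description with no test. *Gal* led the higher genes. It stood at 219, 112 and 153 CPM in control 1 to 3 and at 204, 33.5 and 230 CPM in mutant 1 to 3, and at 10.1 CPM in other neurons (log2 difference 2.88). Mutant 2 was the lowest library and the other 5 lay at 112 or above. *Tshz2*, a teashirt zinc finger factor, was the most abundant of the leading genes, at 933, 993, 945, 882, 887 and 998 CPM in the same order, against 223 in other neurons. Its spread was small and the genotypes overlapped. *Pou4f1* stood at 161, 152, 115, 148, 165 and 175 CPM, against 30.8 in other neurons. *Ramp3*, which encodes an accessory protein of calcitonin-family receptors, was at 143 ± 13.6 (SD, n = 6) CPM against 16.8.

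**Figure D1:**
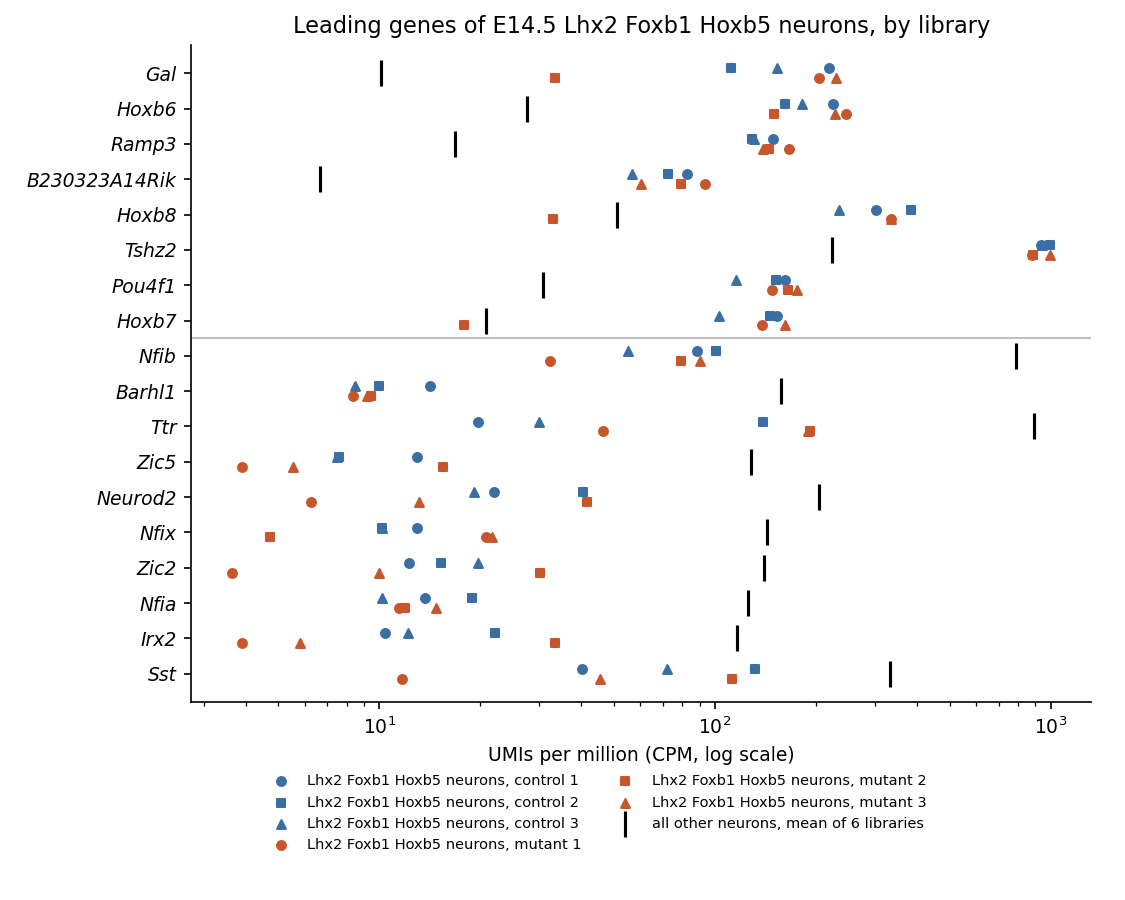
Level in CPM (log axis) of the leading genes in the *Lhx2 Foxb1 Hoxb5* neurons of each E14.5 library (points; blue, control; orange, *Atoh1S193A/-*), with the mean of other neurons over the 6 libraries as a vertical bar. The 8 upper genes lie to the right of their bar, except *Hoxb8* and *Hoxb7* in mutant 2, where other neurons of the same library were lower still, and the 10 lower genes lie to the left of it.

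Among other genes of the higher group, *Ntng1*, which encodes the membrane-anchored netrin G1, stood at 246 ± 11.0 (SD, n = 6) CPM against 78.6 in other neurons. *Tpbg* was at 141 CPM against 32.2, *Ajap1* at 106 against 29.3, *Spock1* at 176 against 53.4, and the kainate receptor subunit gene *Grik1* at 63.9 against 15.3. The second teashirt gene, *Tshz3*, was at 193 CPM against 54.2. Part of these levels was shared with *Foxb1 Hoxb5* neurons without *Lhx2*. There *Ntng1* was at 185, *Tshz3* at 121, *Spock1* at 86.2, *Ajap1* at 52.5, *Tpbg* at 50.8 and *Grik1* at 25.8 CPM.

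The lower group held factors of cerebellar and precerebellar neurons. *Nfib*, a nuclear factor I gene, stood at 74.4 ± 25.8 (SD, n = 6) CPM against 786 in other neurons, and its relatives *Nfix* (13.4 against 143) and *Nfia* (13.5 against 126) were likewise low. *Barhl1*, a homeobox gene of granule and precerebellar neurons, was at 8.34 to 14.1 CPM against 158. *Zic5* was at 8.82 CPM against 128, *Zic2* at 15.2 against 140 and *Neurod2* at 23.8 against 204. *Sst*, the gene of the peptide somatostatin, ranged from 11.7 CPM in mutant 1 to 131 in control 2 and was at 333 in other neurons. *Ttr*, a choroid plexus gene, was at 19.7 to 191 CPM against 309 to 2783 in other neurons. Low levels of some of these genes were shared with *Foxb1 Hoxb5* neurons without *Lhx2*. There *Nfib* was at 111, *Nfix* at 21.8, *Nfia* at 21.7 and *Barhl1* at 12.9 CPM, whereas *Zic2* was at 94.5 CPM.

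Hox genes were the list with the most members higher than in other neurons. Of 26 Hox genes measured, *Hoxb5* of the rule included, 16 were higher than in other neurons in all 6 libraries and 1 was lower, where 20% and 26.2% of all 8890 genes were. The median log2 difference was 0.41 over the Hox genes and -0.03 over all genes. The rule asked for a *Hoxb5* UMI and other neurons held cells without one, so that these counts were set in part by the rule. Beside neurons with *Hoxb5* and *Pax6* but no *Lhx2* or *Foxb1*, *Hoxa5* was higher in 2 of 6 libraries. *Hoxb6*, *Hoxb7* and *Hoxb8* were higher than in these in 6 of 6. *Hoxa2*, of a rostral group, was the 1 lower gene, at 23.6 CPM against 51.4. *Hoxb4* was at 230 CPM against 91.7, *Hoxa5* at 760 against 245 and *Hoxb6* at 198 against 27.6. *Hoxb8* was at 301, 383 and 234 CPM in the controls and at 335, 32.9 and 334 CPM in the mutants, against 51.0 in other neurons. *Hoxb7* was at 153, 146, 103, 138, 17.9 and 162 CPM in the same order of libraries. Mutant 2 alone was low for both, and the other 5 libraries overlapped between genotypes. *Hotairm1*, a noncoding RNA antisense within the HoxA cluster (chr6:52156902-52162119), was at 88.7 CPM against 18.8. *Hoxc8* (1.81 CPM) and *Hoxb9* (6.42 CPM) stayed low and *Hoxd9* was at 0.

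Among 10 factors of dI1 and *Atoh1*-lineage neurons, 5 were higher in all 6 libraries and 5 lower, where 20% and 26.2% of the 8890 genes over the floor were. The higher ones held *Lhx2* and *Foxb1*, whose direction the rule fixed, so that they are not results. The others were *Pou4f1*, *Lhx9* and *Barhl2*. *Lhx9*, the close relative of *Lhx2*, stood at 211, 277, 237, 236, 351 and 277 CPM in control 1 to 3 and mutant 1 to 3, and at 196 CPM in other neurons. *Barhl2* was at 51.4 to 65.7 CPM against 18.3, so that the 2 Barhl genes lay on opposite sides of other neurons. *Nhlh1* (4.45 against 33.8 CPM) and *Nhlh2* (52.2 against 115), genes of newborn and migrating neurons, *Bhlhe22* and *Pou4f2* were lower. Of 22 factors of other hindbrain and spinal neuron classes, 15 were lower in all 6 libraries, and the 2 higher ones were the even-skipped genes *Evx1* (49.8 ± 9.53 against 23.4 CPM) and *Evx2* (21.6 against 19.0). *Isl1*, *Lmx1b*, *Lbx1* and *Tlx3* were each at or below 2.30 CPM on average. Of 17 cerebellar and rostral factors, *Pax6* included, none was higher and 15 were lower in all 6 libraries, with a median log2 difference of -1.38. *Meis2* and *Zic1* remained abundant among them, at 630 and 254 CPM.

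The cells were glutamatergic by their transmitter genes. *Slc17a6*, which encodes the vesicular glutamate transporter VGLUT2, stood at 203, 208 and 214 CPM in the controls and at 221, 221 and 217 CPM in the mutants, against 167 in other neurons. It was found in 78.5% to 88.6% of thinned cells of a library. *Slc32a1*, the vesicular transporter of inhibitory transmitters, did not exceed 3.06 CPM, *Slc6a5* did not exceed 0.760 CPM, and *Gad2* was at 7.98 to 20.9 CPM against 20.3 in other neurons. *Slc17a7* and *Slc17a8* were at 0.463 and 1.93 CPM on average.

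Of 20 neuropeptide genes, 4 were higher in all 6 libraries, the same share as over all genes (20%), and 8 were lower, where 26.2% of all genes were. Beside *Gal* and *Cck*, the neuropeptide Y gene *Npy* was among the abundant ones, at 70.4, 137, 136, 136, 63.6 and 111 CPM against 38.4 in other neurons. *Cck* varied most, at 117, 24.5 and 201 CPM in the controls and 112, 12.4 and 173 CPM in the mutants, and both libraries of the second litter were low. Of 13 genes of galanin signaling and peptide processing, *Gal* included, 5 were higher and 2 lower. The granule protein genes *Pcsk1n* (1241 against 816 CPM) and *Chga* (114 against 76.8) and the carboxypeptidase gene *Cpe* (371 against 309) were higher, and the prohormone convertase gene *Pcsk2* was lower (33.8 against 65.3). The receptor gene *Galr1* was at 0.254 CPM.

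Guidance genes of commissural axons were mostly lower, 14 of 26 in all 6 libraries, with 4 higher. Of all genes, 26.2% were lower and 20% higher in all 6, the shares beside which the counts of this paragraph stand. *Robo3*, the receptor that lets axons cross the midline, was at 8.08 to 30.1 CPM against 81.6, the netrin receptor gene *Unc5c* at 23.4 against 84.9 and *Cntn2* at 28.6 against 102. The neuropilin gene *Nrp1* was higher, at 94.5 to 131 CPM against 52.9, and so was *Robo1* (78.6 against 60.4). Of 20 neuron maturation genes, *Mapt* included, 8 were higher and 2 lower. They included the growth cone gene *Gap43* (3181 ± 442 against 2112 CPM), *Stmn2* (4612 against 3908), the synaptotagmin gene *Syt4* (964 against 471) and *Elavl4* (586 against 377), whereas *Dcx* (597 against 604) lay near other neurons. Of 18 glutamate and GABA receptor genes, 8 were higher and 4 lower, the latter a smaller share than over all genes (26.2%). *Gria1* stood at 29.2 to 59.7 CPM against 15.9 and *Gria2* at 449 against 355. All 11 genes of S phase and mitosis and 11 of 13 progenitor and Notch genes were lower, *Ccnd1* at 1.39 to 4.48 CPM against 22.1. The reporter's WPRE sequence was present in every library, at 231 ± 49.1 CPM against 298 ± 62.8 in other neurons (SD, n = 6), and lower than in other neurons in 6 of 6 libraries (log2 difference -0.35).

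Set beside 3 related classes, the cells had levels near those of each for some genes. The 2123 *Hoxb5 Pax6* neurons, which held *Hoxb5* and *Pax6* but no *Lhx2* or *Foxb1*, had *Nfib* at 2350 and *Barhl1* at 599 CPM, *Lhx9* at 30.3 and *Gal* at 7.53 CPM. Their *Hoxa5* level (906 CPM) was near that of the class, and *Hoxb4* was at 316 CPM. The 3688 *Lhx2* neurons without *Hoxb3*, *Hoxb4* and *Hoxb5* UMIs had *Lhx9* at 538 CPM, *Sst* at 691, *Foxp2* at 263, *Pou4f1* at 21.4 and *Evx1* at 47.8 CPM, the last near its level in the class. They held *Nfib* at 223 and *Barhl1* at 24.0 CPM. The 257 *Foxb1 Hoxb5* neurons without *Lhx2* had *Ramp3* (141 CPM) near its level in the class, *Tshz2* at 444 and *Hoxb6* at 122 CPM. They held *Gal* at 25.1, *Pou4f1* at 35.2 and *Lhx1* at 192 CPM, where the class had *Lhx1* at 30.1. The 1346 cells with *Lhx2* and *Hoxb5* but 0 *Foxb1* UMIs were not among the 3 classes, and held *Pou4f1* at 166 CPM on pooled UMIs. Since limits on some of these genes chose the classes, the differences are descriptions with no test.

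Within the class, cells differed by how far caudal their Hox genes reached. In cells thinned to 10000 UMIs, the highest paralog group with a UMI was group 8 in 34.6% to 47.8% of the cells of 5 libraries and in 14.4% in mutant 2. It was group 5 in 23.4% to 37.1% and in 47.9% in mutant 2. Counting a UMI of any of 9 Hox genes of groups 7 to 9, the shares were 51.9%, 60.4% and 43.4% in control 1 to 3 (94 of 181, 331 of 548 and 69 of 159 cells) and 50%, 16.9% and 49.6% in mutant 1 to 3 (79 of 158, 40 of 236 and 68 of 137). Mutant 2 stood apart from the other 5, whose genotypes overlapped. Controls had 51.9% ± 8.5 and mutants 38.9% ± 19.0 (SD, n = 3 each), a difference of -13.0 points (two-sided exact permutation p = 0.4, where the smallest possible is 0.1). Mutant 2 was also the lowest library for this share in *Hoxb5 Pax6* neurons, 0 of 126 cells, which allows a share of up to 2.38%, against 8.06% to 13.3% in the other 5. In *Foxb1 Hoxb5* neurons without *Lhx2* it had 2 of 64 cells (3.12%) against 8.57% to 25.4%. Mutant 2 was thus the lowest library in all 3 classes. The caudal limit of each dissection is not given in the sources used here, so that for the difference in this share dissected tissue and genotype cannot be told apart. Mutant 1 and mutant 3, of the same genotype as mutant 2, had 50% and 49.6%. What set mutant 2 apart in this share, and in its low *Gal*, *Hoxb7* and *Hoxb8*, was not tested.

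**Figure D2:**
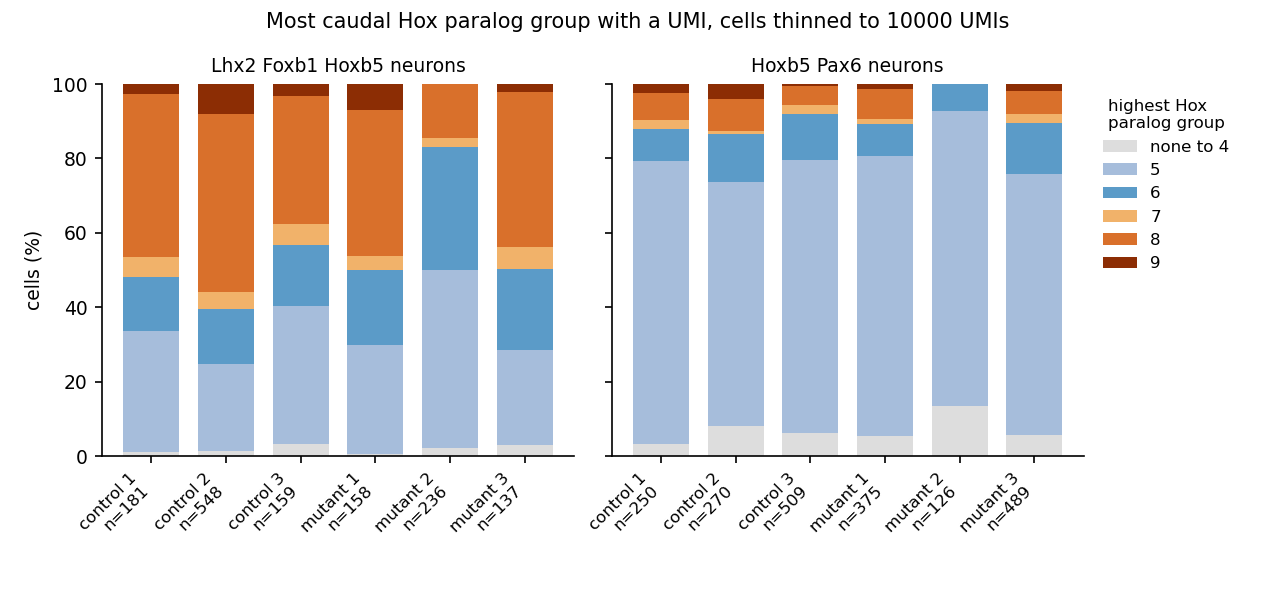
Share of cells (percent, cells thinned to 10000 UMIs) by the highest Hox paralog group with a UMI, for *Lhx2 Foxb1 Hoxb5* neurons (left) and *Hoxb5 Pax6* neurons (right) of each E14.5 library, n cells under each bar. Groups 7 to 9 (warm colors) take 43.4% to 60.4% of the *Lhx2 Foxb1 Hoxb5* neurons in 5 libraries and 16.9% in mutant 2.

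*Gal* and *Cck* differed along the same line, and of the 20 neuropeptide genes they were the 1 that was higher and the 1 that was lower in 6 of 6 libraries. Of 6541 genes at 20 CPM or more, 4.42% were higher and 5.3% lower in 6 of 6. These counts of 1 thus do not set the peptide list apart. In cells with a UMI of Hox groups 7 to 9, *Gal* stood at 388, 201 and 307 CPM in the controls and 389, 72.5 and 454 CPM in the mutants, and in cells without one it was at 21.4 to 39.1 CPM in all 6 libraries. The means were 302 ± 142 and 31.3 ± 6.35 CPM (SD, n = 6), a log2 difference of 2.74, and the library values with such a UMI all lay above those without. *Cck* went the other way, at 15.8 ± 11.6 CPM with and 203 ± 147 without such a UMI, lower with it in 6 of 6 libraries. *Npy* was at 113 CPM with and 124 without such a UMI, and *Sst* at 46.0 and 60.0, with libraries in both directions. A *Gal* UMI was found in 51.2% of thinned cells with a caudal Hox UMI and in 17.5% of those without, and a *Cck* UMI in 7.48% and 31.5%. No test was run between the 2 groups, because they are cells of the same libraries divided by their own RNA.

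Of 107 listed genes at 20 CPM or more in either group, the rule's genes left out, 13 were higher in the cells with a caudal Hox UMI in 6 of 6 libraries and 15 were lower. Of all 6541 genes at that level, without the rule's genes and Hox groups 7 to 9, 4.42% were higher and 5.3% lower in 6 of 6. The higher ones included the neurofilament genes *Nefm* (926 ± 280 against 254 ± 36.9 CPM) and *Nefl* (1464 against 694), *Hoxc6* (110 against 10.2), *Hoxb6* (344 against 118), *Pou4f1* (199 against 124) and *Elavl4* (676 against 514). Mutant 2 had the smallest *Nefm* difference, at 415 against 288 CPM, and had 40 cells with such a UMI. The lower ones included *Lhx1* (8.02 against 37.8 CPM), the calmodulin-binding *Pcp4* (131 against 273), *Hoxb4* (166 against 298), *Syt4* (714 against 1210) and *Unc5c* (12 against 29). *Slc17a6* was slightly lower (198 against 228), and *Lhx9* (276 against 261) was higher in 4 of 6 libraries. Of the rule's own genes, *Lhx2* was at 726 CPM with such a UMI and at 299 without.

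**Figure D3:**
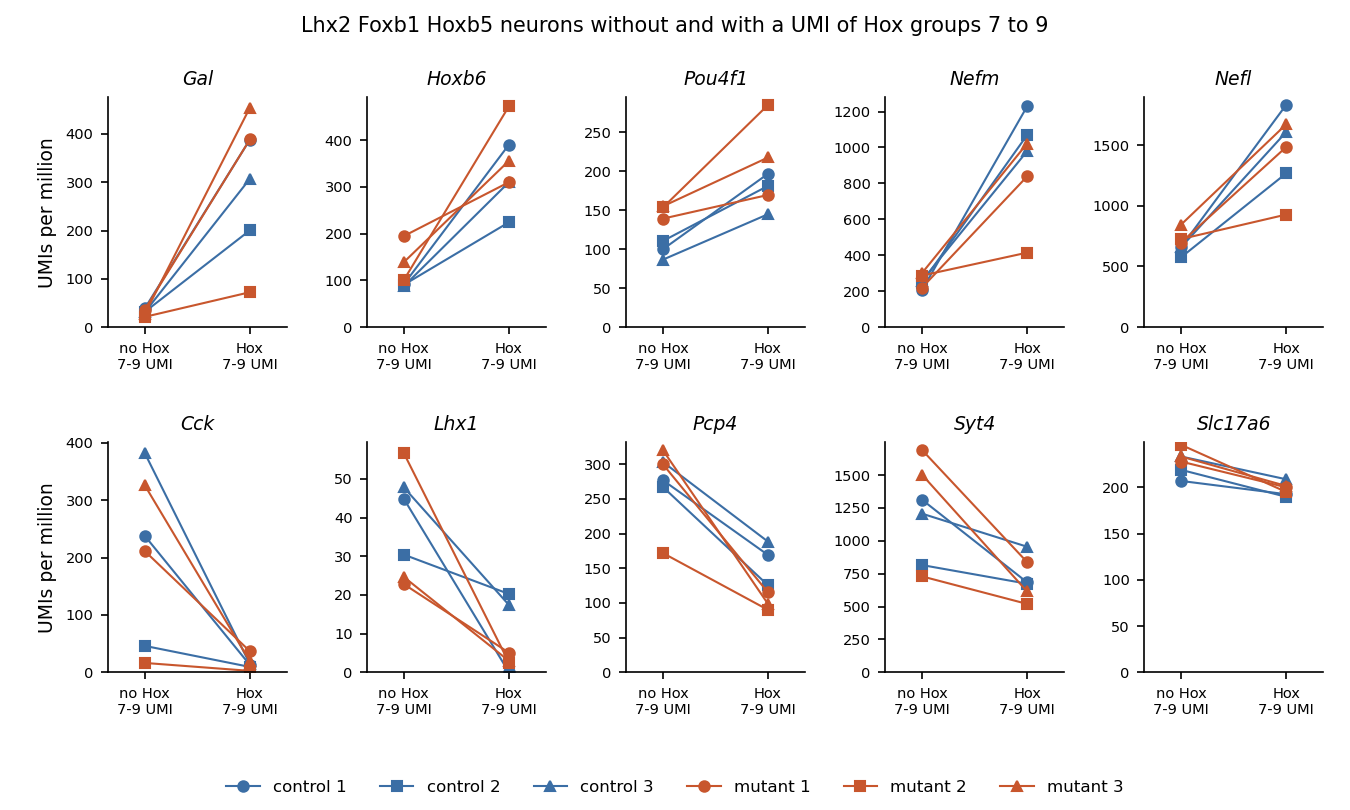
Level in CPM of 10 genes in *Lhx2 Foxb1 Hoxb5* neurons without (left of each panel) and with (right) a UMI of Hox groups 7 to 9, cells thinned to 10000 UMIs, 1 line per E14.5 library (blue, control; orange, *Atoh1S193A/-*). *Gal*, *Hoxb6*, *Pou4f1*, *Nefm* and *Nefl* are higher and *Cck*, *Lhx1*, *Pcp4*, *Syt4* and *Slc17a6* lower with such a UMI in 6 of 6 libraries.

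The genotypes were compared first by the share of *Lhx2 Foxb1 Hoxb5* neurons among kept cells, which asks whether less *Atoh1* function changes how many are found. The shares were 2.93%, 6.31% and 1.68% in control 1 to 3 (188, 559 and 163 cells) and 2.05%, 2.87% and 1.63% in mutant 1 to 3 (163, 238 and 138 cells). Control 2 was far above the others, and the genotypes overlapped. The 95% Wilson intervals, which cover counting error alone, were 5.82% to 6.84% for control 2 and 2.53% to 3.25% for mutant 2. The means were 3.64% ± 2.40 and 2.18% ± 0.629 (SD, n = 3 each), a difference of -1.46 points. It did not pass limma's test on the logit scale (log odds -0.41, SE 0.37, Benjamini-Hochberg adjusted p = 0.577 over 6 classes of cells, exact permutation p = 0.4). The share was lower in the mutant of 3 of 3 litters, with differences of -0.884, -3.44 and -0.0479 points, and 3 litters cannot give a two-sided sign-flip p below 0.25. With the litter as a block the adjusted p was 0.124. Without control 2 the difference was -0.124 points, and over the 4 libraries counted with Cell Ranger 5.0.1 it was 0.504 points, higher in the mutant, but these hold 1 control only, control 3, the lowest of the 3. As a share of neurons the values were 4.56%, 8.05% and 2.48% in controls and 3.91%, 4.27% and 3.31% in mutants, lower in the mutant of 2 of 3 litters and higher in that of the third, with log odds of -0.18 (SE 0.33). Neurons outside the named classes made up 53.7% ± 4.39 of kept cells in controls and 42.6% ± 6.97 in mutants, and cells under the *Mapt* limit 29.8% ± 7.31 and 43.7% ± 9.51 (SD, n = 3 each). Neither difference passed limma's test (adjusted p = 0.577 for both, and 0.123 and 0.0554 with the litter as a block), and their part in the share of the class was not tested.

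**Figure D4:**
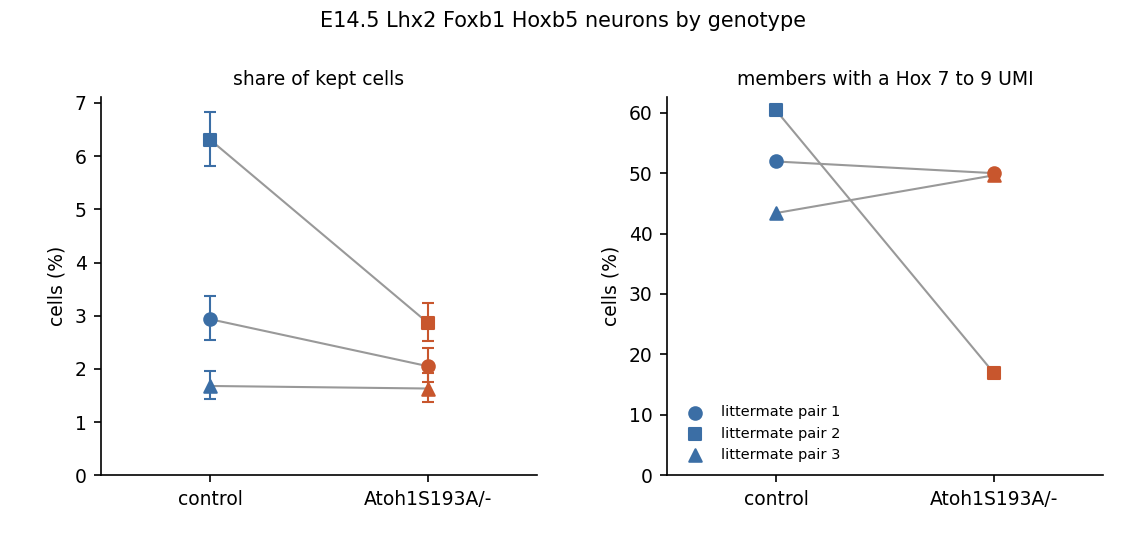
Share of kept cells that are *Lhx2 Foxb1 Hoxb5* neurons (left, percent, bars are 95% Wilson intervals) and share of these neurons with a UMI of Hox groups 7 to 9 (right, percent) in each E14.5 library, littermates joined by lines. Pair 2 moves most in both panels, from 6.31% to 2.87% and from 60.4% to 16.9%.

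Expression within the class was then compared between genotypes on UMIs summed per library. The targeted gene itself, *Atoh1*, is a point mutant whose UMIs do not tell the S193A allele from the wild-type one, and it stood at 6.95, 8.23 and 6.98 CPM in controls and 7.82, 11.3 and 9.22 CPM in mutants (log2 change 0.29, SE 0.21). Of 10487 genes tested by edgeR's quasi-likelihood test, 0 (0%) were called at a false discovery rate under 0.05 with an absolute log2 change over 0.25. At an unadjusted p under 0.05, 162 genes passed (1.54%, 107 higher and 55 lower in the mutant), and DESeq2 called 0 as well, with 68 at that level. In simulated counts of the same depth, the edgeR test recovered 70.5% of 200 genes changed 2-fold and 97% of those changed 4-fold. The simulated libraries shared no litter effect and none stood apart as mutant 2 did, so that these rates need not hold for the data. With the litter as a block in edgeR, 671 genes had an unadjusted p under 0.05 and 1 gene was called (0.00954%). The called gene was the noncoding *AC160336.1* (chr14:44544055-44637201), at a log2 change of -5.70 and a false discovery rate of 0.00218. It stood at 164 and 210 CPM in control 1 and control 2 and at 0.499 to 3.06 CPM in the other 4 libraries, control 3 among them. The same libraries were high in other neurons, at 266 and 288 CPM against 1.72 to 3.58, and they are the 2 that were counted with Cell Ranger 3.1.0.

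The smallest p belonged to *Jun*, an immediate early gene, at 109, 83.6 and 93.3 TMM-scaled CPM in controls and 145, 143 and 140 in mutants, where the genotypes did not overlap, as was so for 6.8% of all genes. Its log2 change was 0.58 (SE 0.12), with a false discovery rate of 0.9998 by edgeR and of 0.132 with the litter as a block. *Ier2* stood at 34.1, 20.9 and 21.0 in controls and 47.4, 42.8 and 37.6 in mutants (log2 change 0.77, false discovery rate 0.9998). Of 8 immediate early and dissociation genes, 6 were tested, 0 were called, 3 had an unadjusted p under 0.05, and all 6 were higher in the mutant of 3 of 3 litters, where 14% of all genes were. *Fos* varied between litters, at 216, 39.3 and 109 CPM in controls and 273, 104 and 177 CPM in mutants, and other neurons had it at 142, 36.9, 77.0, 145, 77.4 and 126 CPM in the same order. In other neurons the log2 change of *Jun* was 0.37 (SE 0.19) and that of *Ier2* 0.39 (SE 0.23), and the differences between the classes, 0.18 for *Jun* and 0.37 for *Ier2*, were not called (false discovery rate 1.00 for both).

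Other lists showed no called gene. Of 13 progenitor and Notch genes, 8 were tested and 5 were higher in the mutant of 3 of 3 litters, where 14% of all genes were, with a median log2 change of 0.80, against 0.0045 over all genes. *Id1* was at 3.06, 3.05 and 1.82 TMM-scaled CPM in controls and 4.17, 12.8 and 4.00 in mutants, and *Hes1* at 12.2, 10.1 and 17.9 against 20.1, 25.6 and 16.0. In other neurons the log2 change was 0.88 (SE 0.27) for *Id1* and 1.07 (SE 0.17) for *Hes1*, against 1.43 and 0.68 in the class, and the difference between the classes was not called for either (false discovery rate 1.00 for both). The levels are low, and the summed CPM of 5 progenitor markers was 9.5 to 13.2 in the controls' and 19.5 to 20.5 in the mutants' *Lhx2 Foxb1 Hoxb5* neurons, against 65.7 to 150 in other neurons. The part of progenitor RNA in these differences was not tested. The 16 Hox genes tested had a median log2 change of 0.14 and 5 tested dI1 factors one of -0.01. The log2 change of *Pou4f1* was 0.13 (SE 0.13), that of *Lhx9* 0.19 (SE 0.15), that of *Tshz2* -0.11 (SE 0.09) and that of *Barhl1* -0.31 (SE 0.23), none of them called. For *Gal* it was -0.09 (SE 0.57) and for *Hoxb8* -0.43 (SE 0.64). With the litter as a block they were -0.41 (SE 0.32) and -0.81 (SE 0.62). With genotype alone and without mutant 2, *Gal* and *Hoxb8* became 0.41 and 0.092, and *Gal* was also at 0.19 without control 1. *Cck* was lower in the mutant of 3 of 3 litters, with a log2 change of -0.24 (SE 0.86), and 0.49 without control 3 and 0.32 without mutant 2.

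**Figure D5:**
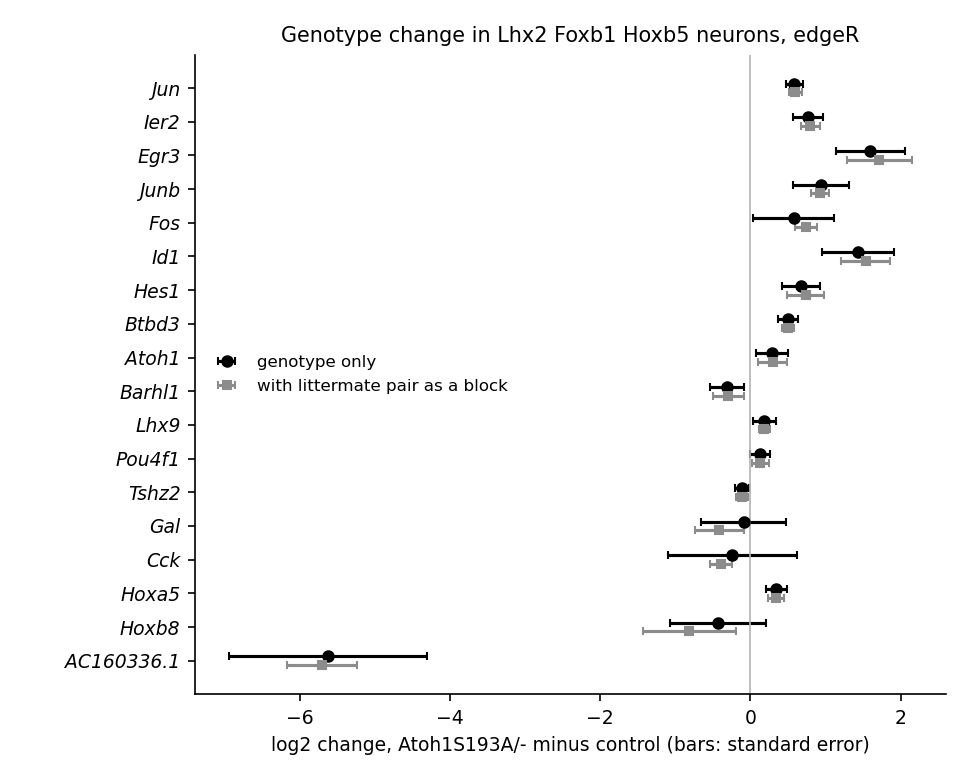
Log2 change (*Atoh1S193A/-* minus control) of named genes in *Lhx2 Foxb1 Hoxb5* neurons with standard errors, by edgeR with genotype alone (black) and after blocking on litter (gray). *AC160336.1* lies near -5.7 in both fits and is the single gene called, with the block, and the immediate early genes *Jun*, *Ier2*, *Egr3*, *Junb* and *Fos* lie above 0.

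Whether a gene changed otherwise in these cells than in other neurons was tested as an interaction of class and genotype, with the library as a block. Of 10487 genes, 0 (0%) were called by edgeR at a false discovery rate under 0.05, and 212 had an unadjusted p under 0.05. *Robo3* was among those with the smallest p, at a log2 change of -0.21 in the class and 0.41 in other neurons, and *Gad2* had changes of -0.53 and 0.44. Without mutant 2, 4 genes were called, *Igfbp5* with a difference of 1.03, *Vim* with -0.74, *Hbb-y* with -2.73 and *Zic2* with -1.59. These 4 were named after their values had been seen.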

How the data were processed

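Per the labels, single-cell libraries were made from sorted tdTomato-positive hindbrain cells. The authors aligned reads to mm10 with WPRE added and deposited UMI counts per gene and cell, not normalized, from Cell Ranger (5.0.1 per the labels; 3.1.0 and 5.0.1 per the file headers), for 31054 genes. Coordinates come from GENCODE M21 (GRCm38) by gene identifier. Raw counts were used for the cell rule, sums per library for tests. Shares were tested with limma 3.58.1 (0.5 cells added) and by exact permutation, expression with edgeR 4.0.16 (TMM, quasi-likelihood) and DESeq2 1.42.0 in R 4.3.3, and genes seen in 10% or more of either genotype's cells were tested. The members and gene lists were chosen with earlier results of these data known. Named genes were list members, the 25 highest and 15 lowest against other neurons, and the 10 smallest p. Some genes that these rules allow are not reported here. Of the listed genes, 2 were not analysed here. Same-numbered libraries are littermates per the labels, and their deviations correlated at 0.329 to 0.596, against -0.470 to 0.159 for other pairs. Replicates differed beyond sampling noise (chi-square per degree of freedom 4.95 to 16.5). Doublets were not called. The alternative without the 7.5% of cells with the most UMIs stood in for it. The 7.5% of cells left out held 34 of 188, 111 of 559 and 25 of 163 *Lhx2 Foxb1 Hoxb5* neurons in control 1 to 3. In mutant 1 to 3 they held 12 of 163, 55 of 238 and 13 of 138. Without them, 46 genes were at least 2-fold higher than in other neurons in every library, and 0 were called between genotypes. The tests were tested on simulated data. The 17 E18.5 cells that meet the rule entered no comparison.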

Additional observations from a re-analysis of the deposited data

Results flagged for a closer look

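The same limits on UMIs were applied to the E18.5 and P5 libraries, which entered no comparison, and found a few cells at E18.5. Control 1 held 5 such cells (0.0620% of kept cells, 95% Wilson interval 0.0265% to 0.145%), mutant 1 held 4 and control 3 held 6, each above the 3 cells that a count of 0 allows, and mutant 3 held 2. Control 2 and mutant 2 of E18.5 held 0, which allows shares of up to 0.0317% and 0.0356% (3 cells of those kept, a limit other than the Wilson interval, whose upper ends were 0.0406% and 0.0456%), and the 2 P5 libraries held 0, which allows up to 0.0265% and 0.0454%. The P5 libraries came from dissected pontine nuclei. The 17 E18.5 cells together held *Gal* at 195 CPM, with a UMI in 10 of them, *Pou4f1* at 119 CPM in 7, *Slc17a6* at 547 CPM in 17 and *Tshz2* at 1083 CPM in 17. *Cck* was at 1122 CPM in 12 cells, *Hoxb8* at 22.6 CPM in 2 and *Barhl1* at 4.11 CPM in 2. The age difference was not tested.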

How the results depend on the processing

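Of 56 recomputed comparison values, 49 were labeled the same, 6 moved and 1 reversed. For a share, the same meant the same direction and side of the threshold. For a count of genes, it meant a count equal or near to the main one. The difference in share, -1.46 points, ranged from -2.44 to -0.124 points when 1 library was left out, did not pass the test with the littermate pair as a replicate block (adjusted p = 0.124), and was 0.504 points over the Cell Ranger 5.0.1 libraries, 3 mutants against 1 control. The 0 genes called between genotypes became 1 (*AC160336.1*) with the replicate block, 1 without a filter on low genes, 0 to 1 when 1 library was left out (1 without control 3), and 3 with the replicate block in cells without a UMI of Hox groups 7 to 9, an alternative chosen after seeing the data, where *Fos* (log2 change 0.67) and *Ttr* (2.04) were also called. The interaction gave 0 to 4 genes when 1 library was left out, 4 without mutant 2. The 37 genes at least 2-fold higher became 96 with 1 CPM in place of 10 CPM added, and 37 to 49 when 1 library was left out. The 56 genes at least 2-fold lower became 236 with 1 CPM added. Among the named genes, 7 of 481 recomputed changes turned direction: *Gal* (-0.50 to 0.41 when 1 library was left out, 0.19 without control 1 and 0.41 without mutant 2), *Cck* (-0.95 to 0.49, 0.49 without control 3 and 0.32 without mutant 2), *Hoxb8* (-0.80 to 0.092, the latter without mutant 2), *Barhl1* (0.014 over Cell Ranger 5.0.1 libraries) and *Atoh1* (-0.12 in cells with Hox groups 7 to 9). The cause was not tested. With 3 embryos per genotype, a share cannot reach an exact p below 0.1, and 138 to 559 cells per library limit genes of a few CPM.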

Other observations

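Further leading genes varied across embryos to different degrees. The zinc finger gene *Zbtb7c* stood at 54.0, 55.4 and 49.4 CPM in controls and 59.1, 51.7 and 51.4 CPM in mutants, against 9.27 in other neurons. *Tspan17* was at 41.1 to 91.9 CPM (73.4 ± 17.3, SD, n = 6) against 19.3. *Klhl5* was at 54.7 to 129 CPM (92.3 ± 30.6) against 22.3, *Caln1*, a calcium-binding protein gene, at 72.0 ± 33.7 against 16.4, and *Fign*, which encodes a microtubule-severing protein, at 177 ± 34.6 against 51.3. *Caln1* was lowest in mutant 2 (22.5 CPM) and control 2 (38.6 CPM), the libraries in which *Cck* was lowest as well. The noncoding *Gm17750* (chr13:84025297-84064772) was at 300 ± 44.8 CPM against 101 in other neurons, and higher still, at 441 CPM, in *Foxb1 Hoxb5* neurons without *Lhx2*.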
